A study of Homo sapiens with 8 samples.

Results

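The 10 genes described here are the PEA3 factors ETV1, ETV4 and ETV5 and a panel of genes switched on by ERK signalling: the feedback genes DUSP4, DUSP6, SPRY2, SPRY4, SPRED1 and SPRED2 and the immediate early gene EGR1. All 10 were found by symbol among the 18564 genes measured in LP-1 cells. ETV5 was picked because its RNA was lower in bortezomib-resistant cells, so its difference between the lines is given as a description, without a test. The other 9 were taken for their place in the pathway, to ask whether the output of ERK signalling was lower as a whole.

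LP-1 is a human multiple myeloma cell line that carries the translocation joining FGFR3 and NSD2 to the immunoglobulin heavy-chain locus. Wild-type cells (WT) were compared with a bortezomib-resistant derivative (BR), which had been kept in bortezomib (BTZ), a proteasome inhibitor, for 2 months. Both lines received vehicle (DMSO) or 25 nM SI-2, an inhibitor of the coactivator SRC-3, for 24 h, which gave 4 conditions with 2 libraries each and 8 libraries in all. The labels call the vehicle cells of the WT line untreated, and the sources used here do not say whether BTZ was still present at harvest or whether the BR line is 1 clone. The libraries held between 17997771 and 18570027 estimated counts on genes. The study describes the experiments behind its heat map of these data as biologically independent, without saying how the cultures were kept apart, and p-values measure the spread between libraries.

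ERK is the last kinase of the cascade that runs from growth factor receptors through RAS, RAF and MEK. Active ERK phosphorylates transcription factors, switches on immediate early genes such as EGR1 within minutes, and relieves repression of the PEA3 genes by Capicua (CIC). It also induces its own brakes: DUSP4 and DUSP6 encode phosphatases that inactivate ERK, and the Sprouty (SPRY) and SPRED proteins restrain signalling upstream, at the receptors and at RAS and RAF. The RNA levels of these genes are therefore often read as a record of ERK activity, although each is also controlled by other inputs. Kinase activity itself was not measured here.

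Levels are given in CPM, each gene's count relative to the total of its library, scaled between libraries by the TMM method. The labels call the cells B lymphoblast of multiple myeloma. All 10 plasma cell markers examined were detected in every library, their summed level ran from 6804 to 9596 CPM, and JCHAIN, which encodes the joining chain of secreted antibodies, was the most abundant. The B-cell genes MS4A1, PAX5 and FCER2 stood at 0.106 CPM or less. The second BR library with SI-2 stood apart. Its 5 fibroblast markers summed to 124 CPM, led by COL1A1 at 53.7 CPM and COL3A1 at 51.9 CPM. In the other 7 libraries they summed to 0.222 to 0.69 CPM. The genes ELF3 (1.61 CPM) and EHF (1.14 CPM) were also highest in it. Its extra RNA is called fibroblast RNA below, after the markers, and its source was not tested. Members' differences that rest most on this library are given with and without it. In bulk RNA, fewer cells that express a gene and less RNA per cell cannot be told apart.

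ETV5, picked for its direction, was lower in every BR library than in any WT library. It stood at 25.9 and 25.6 CPM in WT cells with vehicle and at 13.4 and 22.3 CPM in WT cells with SI-2. In BR cells it stood at 4.58 and 3.50 CPM with vehicle and at 5.59 and 3.02 CPM with SI-2. The lowest WT value, in the first library with SI-2, was still well above the highest BR value. The means were 21.8 ± 5.83 CPM (SD, n = 4) in WT and 4.17 ± 1.15 CPM (SD, n = 4) in BR cells, a log2 fold change of -2.39 (SE 0.25), or 5.23-fold lower.

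ETV4, its close paralog, was less abundant and fell in BR cells. It stood at 3.58 and 4.59 CPM in WT cells with vehicle and at 3.79 and 5.56 CPM with SI-2. The BR values were 1.02 and 1.80 CPM with vehicle and 0.713 and 1.77 CPM with SI-2, so that all BR libraries lay below all WT libraries, as they did for 4.36% of all genes tested. The second library of each condition was the higher one in all 4 conditions. ETV4 was 3.28-fold lower in BR cells, a log2 fold change of -1.71 (SE 0.29, adjusted p = 0.0322, edgeR's quasi-likelihood test of 4 BR against 4 WT libraries, adjusted over the 13520 genes tested). Its call was lost in 6 of the 8 fits that each left out 1 library, with adjusted p up to 0.137 (without the second WT library with SI-2), and kept only without the first WT or the second BR library with SI-2.

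ETV1, the remaining PEA3 factor, stood at 11.3 and 12.8 CPM in WT cells with vehicle and at 16.2 and 13.0 CPM with SI-2. In BR cells it stood at 4.29 and 8.39 CPM with vehicle and at 6.69 and 8.48 CPM with SI-2. The lines did not overlap here either. The log2 fold change of -0.93 (SE 0.21) did not pass the edgeR test (adjusted p = 0.0963).

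The sequence before the start of ETV1 is shown because it holds the letters that CIC, the repressor relieved by ERK, and ETS factors recognise. Promoter sequences from RefSeq (GRCh38.p14) were searched for 7 of the 10 genes, in 15 windows of 250 bases before a start. No window of ETV4, ETV5 or DUSP4 was searched, so their motifs are not known here. The CIC motif was searched as TGAATGAA or TGAATGGA and the ETS motif as CCGGAA, on both strands, and the capitals below mark them. This window, chr7:13991426-13991675 on the minus strand, was the only 1 of the 15 with a CIC motif, at 125 to 118 bases before the start, beside an ETS motif at 136 to 131 bases that does not overlap it.
ETV1: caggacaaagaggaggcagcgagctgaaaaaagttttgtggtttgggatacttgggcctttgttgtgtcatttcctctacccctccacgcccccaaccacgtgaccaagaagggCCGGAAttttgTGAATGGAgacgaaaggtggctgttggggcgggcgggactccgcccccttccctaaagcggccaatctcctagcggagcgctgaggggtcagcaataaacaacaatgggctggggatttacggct
Of all 35116 promoter windows of this length, 2.187% held the CIC motif and 14.535% the ETS motif. The exact letters CCGGAA were found in 4 of the 15 windows, 3 of ETV1 and 1 of SPRY2. A pair of the ETV1 windows overlap and hold the same site, which is counted in both. Other forms of an ETS site were not searched, in these windows or in that of EGR1 below. A match describes the letters, and neither binding nor the start used in LP-1 cells was tested.

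**Figure D1:**
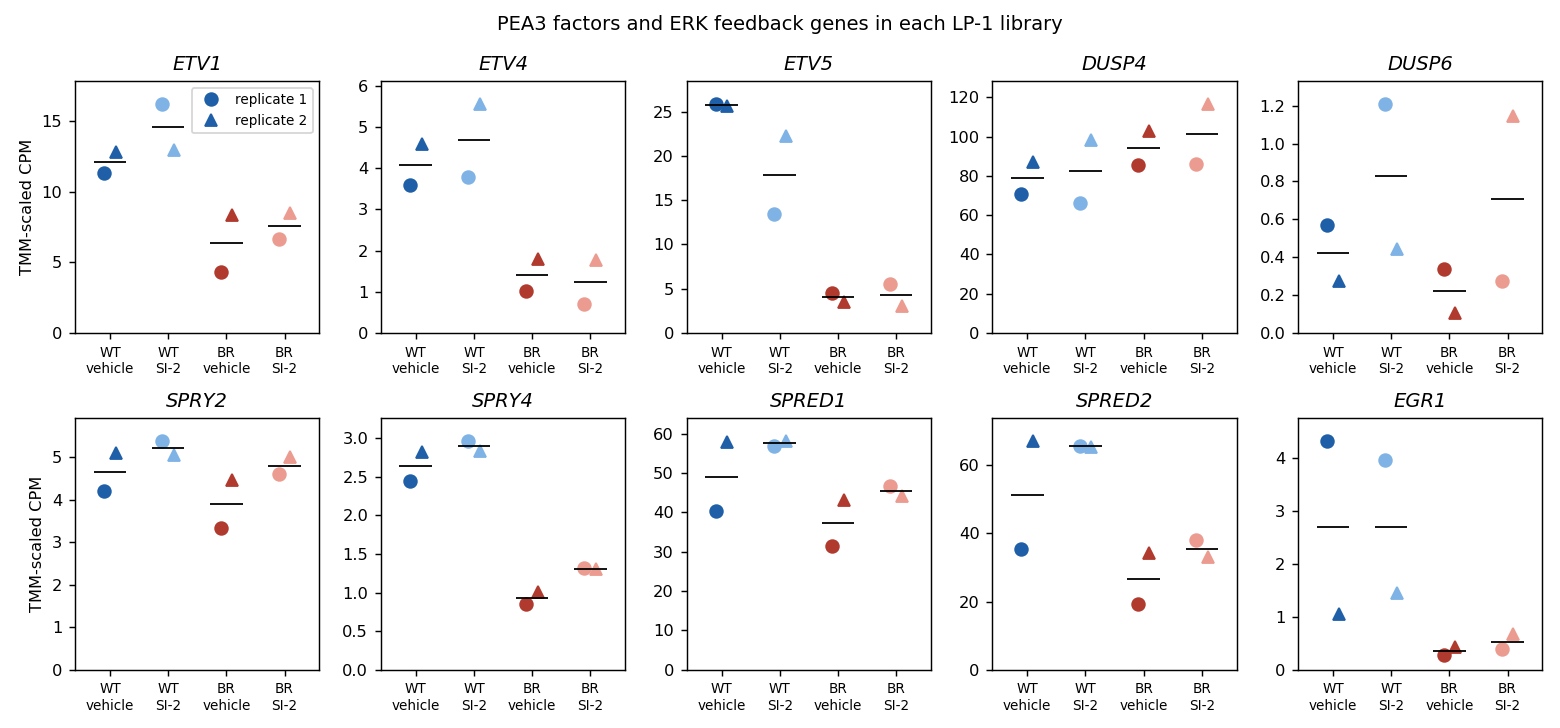
Level of each of the 10 genes in every library, in TMM-scaled CPM on axes that start at 0. Circles are first and triangles second libraries of a condition, horizontal lines are means of 2 libraries, blue is WT and red is BR. All BR points lie below all WT points for ETV1, ETV4, ETV5, SPRY4 and EGR1, while DUSP4 is at 66.2 to 98.4 CPM in WT and 85.6 to 117 CPM in BR cells.

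Of the 6 feedback genes, 5 could be tested with 4 libraries a side and 1 passed, where 0.362% of all 13520 genes tested were called. SPRY4, an inhibitor of receptor signalling to RAS and RAF, fell 2.46-fold in BR cells. It stood at 2.44 and 2.82 CPM in WT cells with vehicle and at 2.97 and 2.84 CPM with SI-2. In BR cells it stood at 0.848 and 1.01 CPM with vehicle and at 1.32 and 1.30 CPM with SI-2. The lines were well apart, and the values within each line spread little (2.77 ± 0.225 CPM in WT and 1.12 ± 0.229 CPM in BR, SD, n = 4). On the log2 scale this was -1.30 (SE 0.20, adjusted p = 0.0237, edgeR). The call was lost in 4 of 8 fits, those without the second WT vehicle, second WT SI-2, second BR vehicle or first BR SI-2 library, where the adjusted p reached 0.0958. Its estimated counts were whole numbers (within 0.005) in 1 of 8 libraries.

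SPRY2, its family member, showed no such gap. It stood at 4.21, 5.09, 5.39 and 5.06 CPM in the WT libraries, in the order vehicle 1 and 2, SI-2 1 and 2. The BR libraries, in the same order, gave 3.33, 4.46, 4.61 and 4.99 CPM. The lines overlapped, and the log2 fold change was -0.18 (95% interval -0.55 to 0.19, adjusted p = 0.639, edgeR).

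SPRED2, which keeps RAS inactive by bringing neurofibromin to the membrane, stood at 35.4 and 67.2 CPM in WT cells with vehicle and at 65.7 and 65.4 CPM with SI-2. In BR cells it stood at 19.2 and 34.3 CPM with vehicle and at 38.1 and 33.0 CPM with SI-2. Only the first WT vehicle library, the low one of its pair, reached into the BR range. Its difference, -0.91 on the log2 scale (SE 0.24), did not pass (adjusted p = 0.149, edgeR).

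SPRED1, the relative that loses function in Legius syndrome, stood at 40.3, 57.8, 56.9 and 58.3 CPM in WT and at 31.4, 43.1, 46.7 and 44.3 CPM in BR cells, in the order given above. The first vehicle library was the lowest in both lines, as for SPRED2. A difference of -0.37 on the log2 scale (SE 0.15) did not pass (adjusted p = 0.321, edgeR).

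DUSP4, the nuclear phosphatase of ERK, was the one member that stood higher in BR cells on average. It stood at 71.0 and 86.8 CPM in WT cells with vehicle and at 66.2 and 98.4 CPM with SI-2. In BR cells it stood at 85.6 and 103 CPM with vehicle and at 85.8 and 117 CPM with SI-2. The lines overlapped, and the second library was higher than the first in all 4 conditions. The log2 fold change of 0.28 had a 95% interval from -0.05 to 0.61 (adjusted p = 0.426, edgeR), so that a fall of the size seen for SPRY4 lay outside its interval.

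DUSP6, the cytoplasmic phosphatase that is often used as a readout of ERK, was barely detected. Its counts were 10 and 5 in WT cells with vehicle, 22 and 8 in WT cells with SI-2, 6 and 2 in BR cells with vehicle, and 5 and 22 in BR cells with SI-2. These counts were under the filter of the comparison of 4 against 4 libraries. DUSP6 was therefore tested only within each treatment, in the fit of the 4 conditions. There its log2 fold change of BR against WT cells was -0.92 (95% interval -3.12 to 1.28, adjusted p = 0.967, edgeR) with vehicle and -0.21 (-1.89 to 1.47, adjusted p = 0.998) with SI-2. Both intervals hold a fall of the size measured for ETV4 as well as a rise, and the value with SI-2 was -1.57 without the BR library that carried fibroblast RNA. The value with vehicle ran from -1.91 to -0.31 when single libraries were left out.

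EGR1, a zinc-finger factor induced within minutes of ERK activation, was low in both lines. Its counts in WT cells were 76 and 19 with vehicle and 72 and 26 with SI-2, and in BR cells 5 and 8 with vehicle and 7 and 13 with SI-2. In CPM these were 4.32, 1.05, 3.96 and 1.45 in WT and 0.283, 0.425, 0.384 and 0.676 in BR cells. The lines did not overlap, but the first WT library of each treatment was far above the second. The log2 fold change was -2.58 (SE 0.51, 5.97-fold lower) and did not pass edgeR's test (adjusted p = 0.0679). It passed in edgeR with the replicate number as a block (adjusted p = 0.0399) and without the second WT vehicle library (adjusted p = 0.0435), and it did not in the other edgeR fits, where the adjusted p reached 0.195 with condition terms. DESeq2 called it, with an adjusted p of 1.64e-04.

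The region before the EGR1 start is shown because it holds the boxes through which ERK reaches this gene in textbooks, where serum response factor (SRF) binds with an ETS partner. The CArG box, a motif bound by SRF, was searched on both strands. In chr5:138465229-138465478 on the plus strand (RefSeq, GRCh38.p14), capitals mark the 2 CArG boxes, at 105 to 96 and 83 to 74 bases before the start.
EGR1: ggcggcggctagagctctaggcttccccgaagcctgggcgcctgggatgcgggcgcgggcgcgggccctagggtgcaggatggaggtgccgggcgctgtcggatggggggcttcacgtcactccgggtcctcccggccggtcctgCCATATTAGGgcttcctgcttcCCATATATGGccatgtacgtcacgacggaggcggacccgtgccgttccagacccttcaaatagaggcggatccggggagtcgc
A CArG box was found in 1.159% of the 35116 windows, and in no other window of the 7 genes. SRF itself stood at 48.8 to 60.0 CPM in WT and 55.7 to 84.5 CPM in BR cells.

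Counted together, 9 of the 10 genes could be tested in the comparison of 4 BR against 4 WT libraries. Leaving out ETV5, 7 of 8 were below 0 on the log2 scale and 1 was above, with a median of -0.92 against a median of 0.0042 over all 13520 genes. In the edgeR test 2 of these 8 genes fell (ETV4 and SPRY4) and 0 rose, where 0.362% of all genes tested were called and 0.251% were called lower in BR cells. DESeq2 also called ETV1, SPRED2 and EGR1, but it called 399 genes in all where edgeR called 49 (15 higher and 34 lower). All 4 BR libraries lay below all 4 WT libraries for ETV1, ETV4, SPRY4 and EGR1 as well as for ETV5, which was picked for its direction. This held for 4.36% of all genes tested, and the reverse, which no member showed, for 3.78%. Without the BR library that carried fibroblast RNA, 32 genes were called and ETV4 (log2 fold change -1.88, adjusted p = 0.0475) and SPRY4 (-1.38, adjusted p = 0.0475) were still among them. With the 4 conditions as terms of the fit 18 genes were called, and ETV4 (adjusted p = 0.117) and SPRY4 (adjusted p = 0.0638) were not among them. With the replicate number as a block 155 genes were called, among them ETV4 (adjusted p = 0.00420), SPRY4 (adjusted p = 0.0203) and EGR1.

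**Figure D2:**
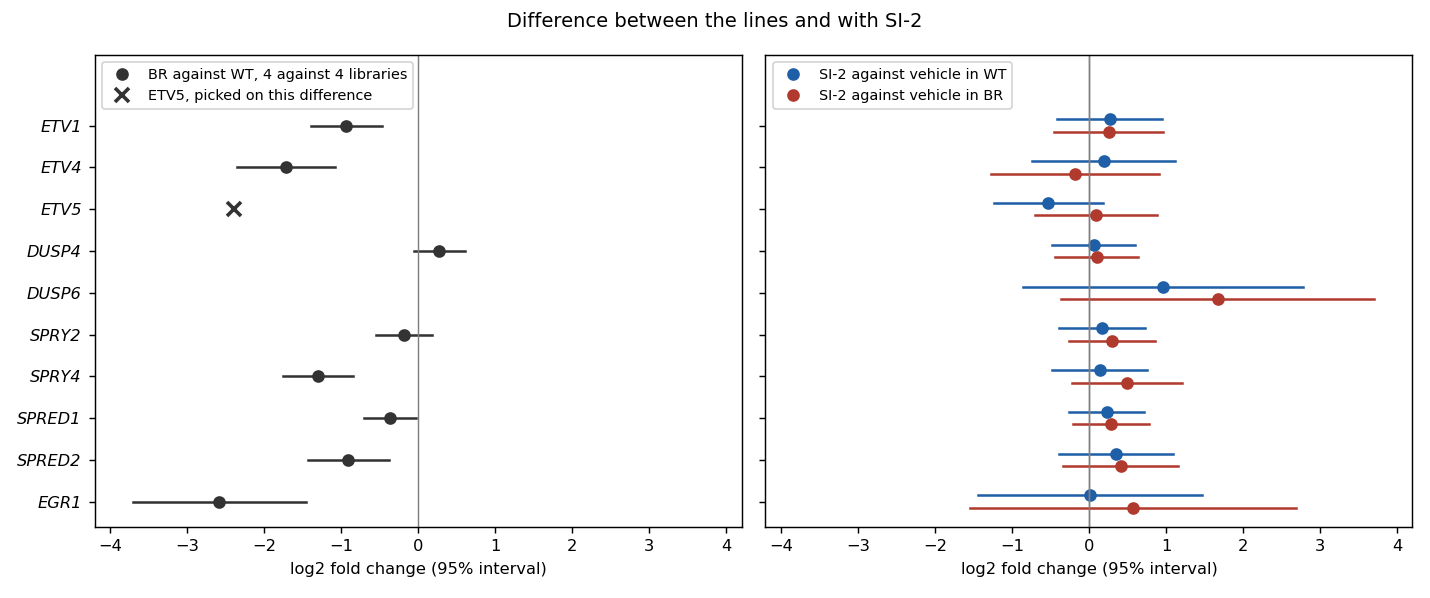
Left, log2 fold change of BR against WT cells (4 against 4 libraries). Right, SI-2 against vehicle in each line (2 against 2 libraries). Dots are estimates of edgeR's fits and lines are 95% intervals. The cross is ETV5 at -2.39, picked on this difference and shown without an interval, and DUSP6 is absent on the left because its counts were under the filter. The intervals of ETV1, ETV4, SPRY4, SPRED1, SPRED2 and EGR1 lie below 0 on the left, before any adjustment, and all intervals on the right cross 0.

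No other gene of the pathway passed the test. Of 116 genes listed by their role, 93 could be tested, and 0 of them were called in either direction. On the log2 scale 44 were above and 49 below 0, with a median of -0.019, and 18 (19.4%) had an unadjusted p under 0.05, as did 1942 (14.4%) of all 13520 genes. BR libraries lay below all WT libraries for 6 of the 93 and above them for 6, where 4.36% and 3.78% of all genes tested did so.

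Closest in role are the other dual-specificity phosphatases that act on MAP kinases. Of 8 listed, 6 were tested, and the median of their log2 fold changes was 0.012. DUSP5, a nuclear phosphatase of ERK, had the lowest value, -1.33 (SE 0.31, adjusted p = 0.110, edgeR). It stood at 13.9, 30.8, 11.5 and 30.2 CPM in WT and 8.48, 8.39, 10.4 and 7.18 CPM in BR cells, without overlap. DUSP1 had the highest value, 0.22, and DUSP8 came next with 0.15. The lowest after DUSP5 was DUSP16, a phosphatase of the stress kinases, at -0.098. The other Sprouty and SPRED genes (3 of 3 tested) had a median of -0.24, and of these SPRED3 had -0.31, SPRY3 -0.24 and SPRY1 -0.15.

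Among the other immediate early genes 9 of 13 were tested, and their median was -0.11 on the log2 scale. ATF3 had -1.35 (SE 0.44, adjusted p = 0.224, edgeR). FOS, which pairs with JUN in the AP-1 factor, had -1.25 (SE 0.34, adjusted p = 0.169, edgeR), and it stood at 3.07, 1.83, 2.80 and 2.89 CPM in WT and 1.75, 0.425, 0.987 and 1.30 CPM in BR cells. JUN itself had 0.28 and SRF 0.25, neither past the test. Of the further genes that depend on MEK, 3 of 7 were tested: PHLDA1 had 0.36, IER5 0.12 and the cyclin gene CCND1 0.097.

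CIC, the repressor of the PEA3 genes, stood at 115 to 177 CPM in WT and 104 to 170 CPM in BR cells, with a log2 fold change of 0.053 (95% interval -0.32 to 0.43, edgeR). Its partners ATXN1 and ATXN1L had 0.040 and -0.074. Of 24 other ETS factors 16 were tested, with a median of 0.082. ETS1 had 0.46 (adjusted p = 0.145, edgeR) and ETV6 0.24 at one end, and ETV2 -1.02 (adjusted p = 0.201, edgeR) and ELF4 -0.57 at the other.

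Upstream, FGFR3, the receptor that the translocation places under the heavy-chain enhancer, stood higher in every BR library. It stood at 885, 900, 638 and 958 CPM in WT and 1466, 1252, 1073 and 1278 CPM in BR cells. Its log2 fold change of 0.58 (SE 0.14) did not pass the test (adjusted p = 0.116, edgeR). KIT, a receptor at 0.66 to 0.853 CPM in WT and 1.09 to 2.03 CPM in BR cells, had 1.02 (adjusted p = 0.148, edgeR). ERBB3 had -0.56 and ERBB2 -0.38, and the median of the 10 receptors tested of 15 listed was 0.088.

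Between receptor and ERK the values centred near 0. The 12 adaptor and RAS exchange genes centred on -0.0069 (median log2 fold change), with RASGRP1 at 0.74, RASGRP2 at 0.66, RASGRP3 at -0.19 and GAB2 at -0.53. The 18 genes of the kinase cascade had a median of -0.055. Near the ends were RPS6KA3 at 0.17, RPS6KA2 at -0.62 and RPS6KA1 at -0.68, and the RPS6KA genes encode RSK kinases that ERK activates. The 13 RAS GTPase activating proteins and other brakes had a median of -0.050. RASA3, which switches off RAS and RAP1, had -1.13 (SE 0.22, adjusted p = 0.0639, edgeR) and stood at 17.1, 19.3, 10.3 and 16.1 CPM in WT and 9.66, 6.47, 6.91 and 5.62 CPM in BR cells. RASAL2 had -0.50 and RASAL3 0.20. PEBP1, the RAF kinase inhibitor protein, had 0.32 and stood higher in every BR library (adjusted p = 0.142, edgeR).

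**Figure D3:**
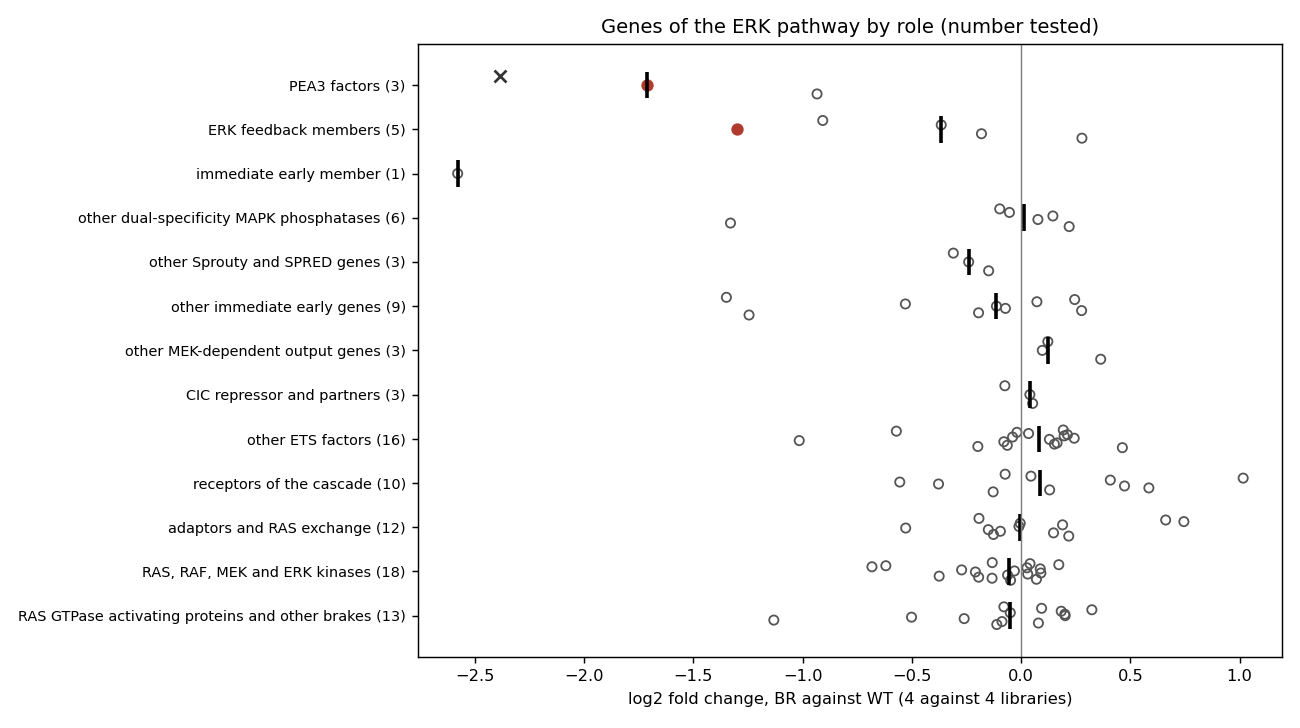
Log2 fold change of BR against WT cells for every tested gene of the pathway, by role, with the number tested in brackets. Filled dots passed the edgeR test, open dots did not, the cross is ETV5 (picked on this difference), and vertical bars are medians of the lists. The 2 filled dots are ETV4 and SPRY4, and the medians of the lists other than the members lie between -0.24 and 0.12.

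Taken within each treatment, with 2 libraries a side, the same genes lay low but none passed. With vehicle, 0 of 13896 genes were called (0%; 540 at an unadjusted p under 0.05, and 28 called by DESeq2), and 0 of the 9 members other than ETV5. Of these 9, 8 were below 0, and their median was -0.93 on the log2 scale, against 0.00061 over all genes. With SI-2 the edgeR test called 1 gene of 13896 (0.0072%), IGF2BP3, named after its values were seen, and 0 of the 9 members, and without the library that carried fibroblast RNA it called 0 genes. Again 8 of 9 were below 0, with a median of -0.88 against 0.0091 over all genes. SPRY4 had -1.50 (SE 0.30) with vehicle and -1.15 (SE 0.29) with SI-2, ETV4 -1.53 (SE 0.45) and -1.90 (SE 0.45), and EGR1 -2.89 (SE 0.80) and -2.33 (SE 0.75). For ETV5, as a description, the values were -2.67 and -2.05. Without the library that carried fibroblast RNA, the values under SI-2 were -1.14 for SPRY4, -2.70 for ETV4, -2.79 for EGR1 and -1.67 for ETV5. When each library was left out in turn, EGR1 ran from -3.57 to -1.54 with vehicle and from -2.88 to -1.44 with SI-2. Both BR libraries were below both WT libraries for 5 of the 9 members other than ETV5 with vehicle, against 17.6% of all genes tested, and for 7 of the 9 with SI-2, against 15.2%.

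No gene of the panel passed the test with SI-2. In WT cells the edgeR test called 0 of 13896 genes (0%, with 74 at an unadjusted p under 0.05 and 1 called by DESeq2), and in BR cells also 0 (0%, with 167 and 1). Over both lines together, with 4 libraries a side, it called 0 of 13520 genes (0%, with 300 at an unadjusted p under 0.05 and 0 called by DESeq2). That fit had no term for the line, so a difference between the lines counted as spread. The SE of ETV5 was 0.71 in it, against 0.31 in WT and 0.35 in BR cells. For SPRED1, which differed less between the lines, it was 0.18 against 0.22 in each line. No member had an unadjusted p under 0.05 in any of these 3 comparisons. ETV5 had a log2 fold change of -0.53 (95% interval -1.24 to 0.18) with SI-2 in WT cells, where both treated libraries were under both vehicle libraries, and of 0.09 (-0.70 to 0.88) in BR cells. The value in WT cells ran from -0.94 to -0.21 when single libraries were left out. SPRY4 had 0.14 (-0.48 to 0.76) in WT and 0.49 (-0.22 to 1.20) in BR cells. EGR1 had 0.012 (-1.45 to 1.47) and 0.57 (-1.54 to 2.69), intervals too wide to show a 2-fold change.

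The small shifts with SI-2 were mostly upward. In WT cells 9 of the 10 genes were above 0, where the median was 0.18 on the log2 scale, and in BR cells 9 of 10, with a median of 0.29. The medians over all genes were 0.00053 and -0.0010, and those of the 93 other pathway genes were 0.093 and 0.098. These comparisons share their vehicle libraries with the comparison of the lines under vehicle. For SPRED1 and SPRED2 the first vehicle library was the lowest of its line in both lines. DUSP6 had the largest value in BR cells, 1.67 (SE 0.90), which rests on the 22 counts in the library that carried fibroblast RNA, and it was 0.31 without that library. Without it EGR1 had 0.11, ETV4 -0.98 in place of -0.18, ETV5 0.47 and DUSP4 -0.14 in place of 0.10. The median over the members in BR cells was 0.27 without it, and it ran from 0.079 without the first BR vehicle library to 0.57 without the second. In WT cells the median ran from 0.032 without the first WT vehicle library to 0.34 without the second, and it was 0.11 without the first WT library with SI-2. The part of the fibroblast RNA in these values was not tested. The test of whether the SI-2 effect differed between the lines called 0 genes (0%, with 74 at an unadjusted p under 0.05 and 1 called by DESeq2), and 0 members had an unadjusted p under 0.05. ETV5 had 0.62 (95% interval -0.45 to 1.68) in that test.

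Levels between genes were compared in FPKM, which divides by gene length. In WT cells DUSP4 (14.0 ± 2.49 FPKM, SD, n = 4) and SPRED2 (13.2 ± 3.49 FPKM) were the highest, and their ranges overlapped. SPRED1 (6.84 ± 1.11 FPKM) and ETV5 (5.21 ± 1.35 FPKM) came next, within their spread of each other. ETV1 (2.78 ± 0.453 FPKM), SPRY2 (2.15 ± 0.247 FPKM) and ETV4 (2.01 ± 0.402 FPKM) formed a lower group with overlapping neighbours. EGR1 (0.845 ± 0.529 FPKM), SPRY4 (0.522 ± 0.0427 FPKM) and DUSP6 (0.193 ± 0.119 FPKM) were the lowest, and EGR1 and SPRY4 overlapped. In BR cells ETV5 stood at 1.01 ± 0.245 FPKM, below ETV1 (1.50 ± 0.475 FPKM) and SPRY2 (1.93 ± 0.375 FPKM), with a range that overlapped that of ETV1. Of the PEA3 factors ETV5 had the highest mean in FPKM in WT cells and ETV1 in BR cells. The ranges of ETV5 and ETV1 overlapped in WT cells too, since the first WT library with SI-2 held 3.26 FPKM of ETV5 and 3.40 FPKM of ETV1.

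**Figure D4:**
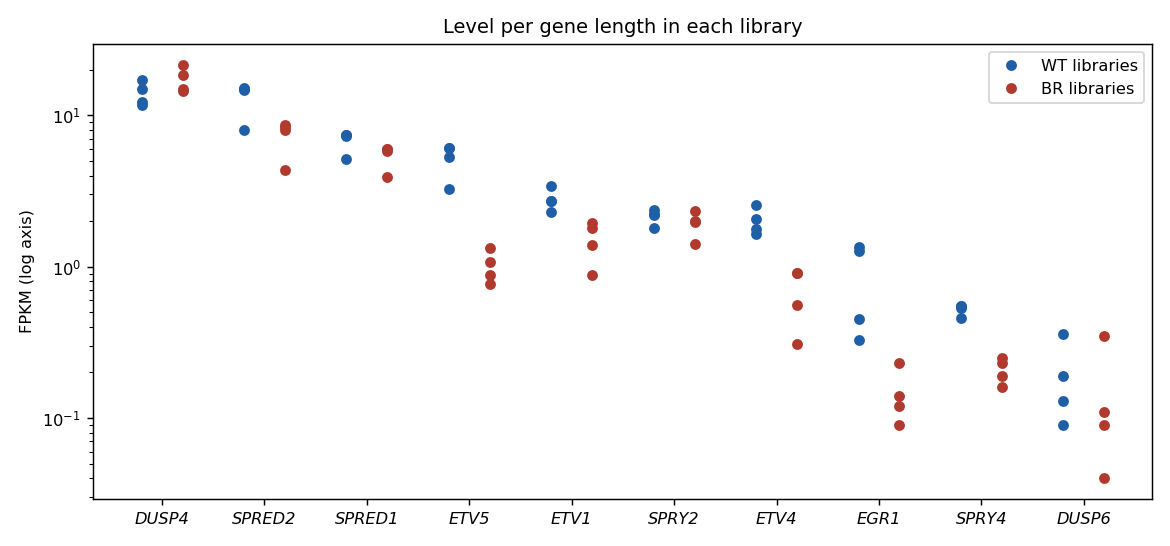
FPKM of each gene in every library on a log axis, ordered by the WT mean, with WT libraries in blue and BR libraries in red. DUSP4 stays between 11.7 and 21.6 FPKM in all 8 libraries, and ETV5 moves from 3.26 to 6.13 FPKM in WT to 0.77 to 1.33 FPKM in BR cells.

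The transcript table listed 1 transcript for ETV5 (NM_004454.2) and 1 for EGR1 (NM_001964.2), so no change of isoform could be read for them. For DUSP4 the transcript NM_001394.6 took 98.1% of the counts, for SPRY2 NM_005842.3 took 93.2% and for SPRED2 NM_181784.2 took 92.4%. The leading transcripts of the called members varied widely between libraries. For SPRY4, NM_001127496.1 took 24.8% to 89.7%, and for ETV4, NM_001261438.1 took 0% to 84.4%. Counts of ETV1, ETV5, DUSP6, SPRY2 and EGR1 were whole in all 8 libraries. They were whole in 5 libraries for ETV4, 2 for SPRED2, 1 for SPRY4 and 0 for DUSP4 and SPRED1.

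The genes next to ETV5 in the RefSeq order had smaller differences. Of its 3 neighbours on each side, TRA2B, a splicing regulator, had a log2 fold change of 0.42, IGF2BP2 0.022, CRYGS 0.24 and TBCCD1 0.16. SENP2, a SUMO protease, had -0.22 and was lower in every BR library, and DGKG was under the filter. The genes whose log2 CPM most resembled that of ETV5 over the 8 libraries, of 12749 compared, were AACS, an acetoacetate-activating enzyme (Pearson r 0.988), LOC101060254 (0.983), MRRF, a mitochondrial ribosome recycling factor (0.983), CERCAM (0.982) and RPL7A, a ribosomal protein gene (0.980). All 5 were lower in BR cells, and the libraries they share with ETV5 include the difference between the lines. Among the members, SPRY4 ranked 197th (r 0.901) and ETV4 555th (r 0.824), while DUSP4 had r -0.55.

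Lists outside the pathway also held genes that stood lower in BR cells. Of 10 plasma cell markers 7 were below 0, with a median of -0.19 on the log2 scale against 0.0042 over all 13520 genes, and 0 passed edgeR's test. MZB1, a chaperone of antibody assembly, had -0.67 (adjusted p = 0.201), SDC1, the surface marker CD138, -0.53 (adjusted p = 0.242) and XBP1 -0.31 (adjusted p = 0.365), while CD38 had 0.15 and JCHAIN 0.13. The markers' mean log2 level was 8.03, 7.79, 7.82 and 7.78 in the WT libraries and 7.87, 7.57, 7.73 and 7.47 in the BR libraries, so that the lines overlapped, and its part in the members' differences was not tested. The B cell markers' summed level did not overlap, at 5.46 to 11.3 CPM in WT and 4.3 to 4.77 CPM in BR cells, while their mean log2 level did. CR2, one of them, had -0.93 (adjusted p = 0.136, edgeR) and was lower in every BR library, as were 4.36% of all genes tested. The part of these markers was not tested either. Of 12 genes of the amino acid response 10 could be tested, all with log2 fold changes below 0, and 1 passed edgeR's test, INHBE at -1.61. Of the other two, PSAT1 averaged 0.223 CPM in WT and 0.535 CPM in BR cells, where 1 library held 1.82 CPM, and VLDLR averaged 0.571 and 0.534 CPM. The list's mean log2 level in WT libraries was 6.31, 6.63, 5.94 and 6.59, and in BR libraries it was 6.08, 5.66, 5.90 and 5.73, so that the lines overlapped. With this level as a covariate 5 genes were called in edgeR and 0 of the members other than ETV5, where ETV4 had a log2 fold change of -1.67 (adjusted p = 0.366) and SPRY4 -1.39 (adjusted p = 0.257). The directions and sizes of these 2 genes were close to those without it, and the level and the line cannot be fully told apart.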

How the data were processed

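RNA from 8 LP-1 libraries was sequenced on the BGISEQ-500 platform. The study describes a filter on base quality and expression levels computed on assembled Unigenes. The submitters' processing notes name hg19, BWA, Bowtie2 and RSEM, with no versions or roles. The listed transcripts carry RefSeq identifiers, and which description applies to these values was not settled. The deposited gene table holds estimated counts, which are not whole for every gene, and FPKM, scaled by the authors for gene length and library size. The table per transcript was used only for transcript shares. Deposited comparison tables of SI-2 against vehicle hold the authors' log2 fold changes, p-values and q-values and were not used, nor were the 8 columns of condition averages in the gene table. That table has 25 gene symbols that a spreadsheet changed to dates. RefSeq (GRCh38.p14) held 18267 of its 18564 identifiers and was used for names, gene order and promoter sequences.

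Groups were taken from the sample titles. Estimated counts were rounded to whole numbers, filtered with filterByExpr (minimum count of 10), scaled by TMM (factors 0.971 to 1.06) and tested with edgeR 4.0.16 (quasi-likelihood F-test, Benjamini-Hochberg adjustment, threshold 0.05). BR was compared with WT, and SI-2 with vehicle, in fits of 4 against 4 libraries (13520 genes). These fits had no term for the other factor or for the replicate number. The 4 conditions were compared in 1 fit (13896 genes, common dispersion 0.0321). Standard errors came from the fold change and its F statistic. The steps were tested on simulated data. The alternatives were DESeq2 1.42.0, limma 3.58.1 on log2(FPKM + 1) and log2(FPKM + 0.1), other scalings and filters, condition terms, the replicate number as a block, the amino acid response as a covariate, and each library left out. The genes named in the text are all members, up to 2 of each pathway list with the highest and 2 with the lowest fold change of BR against WT, 3 neighbours of ETV5 on each side and the 5 genes most like it in level. IGF2BP3, ELF3, EHF and the collagen and lineage markers lie outside this rule and were named after their values were seen. Of the genes the rule names, 1 is counted in the summaries and otherwise not reported here. The members and lists were chosen with earlier results of these data known. Fits were run in R 4.3.3, and summaries and plots were made in Python 3.11.15 with pandas 2.3.3, numpy 2.4.6 and matplotlib 3.10.9. Depth was similar across libraries, and intervals of single low counts cover counting error only.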

Additional observations from a re-analysis of the deposited data

Results flagged for a closer look

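In 4 of 32 groups of 4 libraries of 1 line (10 genes and 6 other gene lists, each in 2 lines), 1 library lay so far from the others that its gap, divided by the range, passed Dixon's critical value at 95%. Chance gives about 1 such group in 20. In WT cells the first vehicle library was low for SPRED1 (40.3 CPM) and for SPRED2 (35.4 CPM). In BR cells the second SI-2 library was high for the fibroblast markers (124 CPM summed) and for the T and NK cell markers (1.98 CPM summed).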

How the results depend on the processing

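In BR against WT cells, both treatments together, no alternative turned the direction of a member, and edgeR's 49 called genes became 399 with DESeq2, 155 with the replicate block, 18 with condition terms, 5 with the amino acid response as a covariate and 21 to 125 when single libraries were left out. Of the members other than ETV5, edgeR called 2, DESeq2 5, the replicate block 3, limma on log2(FPKM + 0.1) 1, condition terms 0 and the covariate 0, and single omissions left 0 to 2. The cause of these changes was not tested. Under the block EGR1 had an adjusted p of 0.0399. Over the 6 pairs of conditions, deviations of same-numbered libraries correlated at 0.51 within the WT line and at 0.44 within the BR line. Across the lines they correlated at 0.21, 0.19, -0.18 and 0.10, so the replicate numbers were not shown to pair libraries of different lines. Within a line, same-numbered libraries deviated partly alike. The main fit of BR against WT treated the libraries of a line as independent, and the calls of ETV4 and SPRY4 rest on that. With vehicle, where edgeR called 0 genes, upper-quartile scaling, a CPM filter, the replicate block and limma on log2(FPKM + 1) called 1 each, no filter called 3, limma on log2(FPKM + 0.1) called 4 and DESeq2 28, and single omissions 0. With SI-2, where edgeR called 1, DESeq2 called 34, limma 0 with either offset, and omissions gave 0 to 67. For SI-2 against vehicle DESeq2 called 1 gene in WT cells, 1 in BR cells and 1 in the test of the difference, against 0, and omissions in BR cells gave 0 to 67. The counts of 67 came without the first BR library with SI-2, when the library with fibroblast RNA stood alone for its condition. 

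The SI-2 differences of members turned direction in places, all of them within their error. With limma on log2(FPKM + 1) the difference in SI-2 effect became 0.0019 for ETV1 and -0.0012 for SPRED2. With limma on log2(FPKM + 0.1) it became 0.082 for ETV1, and the SI-2 effect over both lines became -0.070 for ETV4. When single libraries were left out, the SI-2 effect in WT cells ran from -0.25 to 0.32 for DUSP4, -0.89 to 1.36 for EGR1, -0.10 to 0.44 for ETV4, -0.0050 to 0.52 for SPRED1 and -0.035 to 0.89 for SPRED2. In BR cells it ran from -0.14 to 0.30 for DUSP4, -0.16 to 0.82 for ETV1, -0.98 to 0.31 for ETV4 and -0.43 to 0.47 for ETV5. Over both lines it ran from -0.053 to 0.21 for DUSP4, -0.85 to 1.45 for EGR1 and -0.40 to 0.47 for ETV4. The difference in effect ran from -0.22 to 0.34 for DUSP4, -0.65 to 1.70 for DUSP6, -0.79 to 1.46 for EGR1, -0.43 to 0.54 for ETV1, -1.18 to 0.12 for ETV4, -0.24 to 0.30 for SPRED1, -0.50 to 0.53 for SPRED2 and -0.075 to 0.35 for SPRY2. DUSP6 in BR against WT cells under SI-2 ran from -1.57 to 0.67. Depth limits DUSP6 and EGR1, whose counts were as low as 2 and 5.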
